A study of Homo sapiens with 21 samples.

Results

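RUNX1 binding was described at 9 genes of the JAK-STAT pathway: the kinases JAK1, JAK2 and JAK3, the transcription factors STAT5B, STAT5A and STAT3, and the inhibitors SOCS1, SOCS3 and CISH. A peak belonged to the set when its summit, the base of highest signal, lay in 1 of 7 hg19 windows around these genes. STAT5B, STAT5A and STAT3 are neighbours on chromosome 17 and shared 1 window. The windows held 402 of the 791439 peaks of the 14 lists. Summits were widened by 100 bp on each side and merged over all lists, which gave 96 regions in the windows out of 190855 in the genome.

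The cells were untreated Jurkat cells, a human leukaemia line of T-cell origin, in which short epitope tags mark the products of the RUNX1 gene. Chromatin was fixed for 15 min, precipitated with an antibody to the HA tag or to the TY1 tag, and sequenced. In clones knocked in for R232fs (a frameshift), Y287X (a stop codon) or G365R (an amino acid change), the mutant protein carried HA and the wild-type protein of the same cells carried TY1. In the parental clone, labelled WT, both tags marked wild-type protein. Every list came from a single-cell clone, with 2 clones for each mutant genotype and 1 for WT, so a difference between genotypes rests on 1 or 2 clones a group. The series has 21 samples, of which 14 have a peak list and 7 are controls with no list analysed here. A list held 30563 to 86433 peaks, and the highest solved summit pileup (stacked fragments) was at least 2904 in the R232fs and Y287X lists and at most 480 in the G365R and WT lists. These lists therefore differ in kind as well as in genotype, and for a contrast across that line the genotype and the kind of list cannot be told apart.

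The JAK-STAT pathway carries signals from cytokine receptors to the nucleus. Receptor-bound JAK kinases phosphorylate STAT proteins, which pair, enter the nucleus and bind DNA, and among the genes they switch on are CISH, SOCS1 and SOCS3, whose products feed back to shut the receptor off. In T cells JAK1 and JAK3 serve the receptors that share the common gamma chain, and activating mutations of JAK1, JAK3 and STAT5B are known in T-cell leukaemia. RUNX1, the factor precipitated here, binds DNA through its Runt domain and guides T-cell development.

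RefSeq (GRCh38.p14) lists 17 transcription start sites for the 9 genes. The 250 bases before each were searched on both strands for the RUNX motif TGTGGT, for its variant TGCGGT and for the palindrome TTCNNNGAA that STAT proteins bind. No match overlapped another. TGTGGT was in 0 of the 17, beside 11% of all 35116 promoters. TGCGGT was in 1 of 17, that of STAT3 (5.84% of all), and TTCNNNGAA in 1 of 17, that of CISH (6.57% of all), where it occurred 4 times. These 2 promoters are shown, 5′ to 3′ on the gene's strand, because they are the only ones of the 17 with a match, which the capitals mark. No genome of the peak lists' build was used, so bases under the peaks are not shown, and a match is no evidence of a bound site.
CISH, chr3:50611775-50612024, minus strand: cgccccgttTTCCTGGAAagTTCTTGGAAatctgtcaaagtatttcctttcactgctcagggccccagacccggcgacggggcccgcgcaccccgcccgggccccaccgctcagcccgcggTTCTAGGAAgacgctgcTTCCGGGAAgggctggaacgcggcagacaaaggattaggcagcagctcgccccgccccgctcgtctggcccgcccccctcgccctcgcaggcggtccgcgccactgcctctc
STAT3, chr17:42388443-42388692, minus strand: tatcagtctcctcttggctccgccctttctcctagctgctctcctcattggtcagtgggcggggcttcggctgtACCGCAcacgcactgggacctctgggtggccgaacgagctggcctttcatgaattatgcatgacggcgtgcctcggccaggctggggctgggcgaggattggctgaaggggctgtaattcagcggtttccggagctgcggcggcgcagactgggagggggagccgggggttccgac
The CISH stretch holds its matches 241 to 233, 230 to 222, 129 to 121 and 112 to 104 bases before the start. In STAT3 the match is ACCGCA, the reverse complement of TGCGGT, 176 to 171 bases before the start.

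The 9 genes were densely occupied as a group. The windows span 648 kb and held 14.81 regions per 100 kb, against 6.47 over the 2950619 kb of chromosomes 1 to 22 and X reached by the lists. CISH (25.93 regions per 100 kb), the STAT window (25.24) and SOCS1 (21.74) were the most crowded. JAK3 (18.18), SOCS3 (16) and JAK1 (10.32) followed, and JAK2, at 1.83, lay below the series. Windows centred on genes are not a sample of the genome, and this was not tested.

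Summits in the windows numbered 46 and 47 in the R232fs HA lists and 19 and 32 in the R232fs TY1 lists, with the clones in the same order. In Y287X they numbered 29 and 44 for HA and 31 and 52 for TY1. G365R had 12 and 11 for HA and 24 and 23 for TY1, and WT had 9 for HA and 23 for TY1. HA lists thus held more of these summits than TY1 lists in both R232fs clones and fewer in the other 5 clones. The HA lists were also the longer ones in both R232fs clones (77691 and 86433 peaks against 40112 and 59140) and the shorter ones in both G365R clones (30609 and 30563 against 57378 and 61793) and WT (37472 against 59452). Per 10000 peaks of a list, the windows held 5.92 and 5.44 (HA) and 4.74 and 5.41 (TY1) in R232fs, and 5.59 and 6.51 (HA) and 6.23 and 6.38 (TY1) in Y287X. The same measure was 3.92 and 3.60 (HA) and 4.18 and 3.72 (TY1) in G365R, and 2.40 (HA) and 3.87 (TY1) in WT. On this scale the 8 R232fs and Y287X lists lay above the 6 G365R and WT lists with no overlap, whichever tag was used. When every list was limited to its 30563 strongest peaks, the former held 17 to 22 of these summits and the latter 9 to 19, so that the ranges then overlapped.

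**Figure D1:**
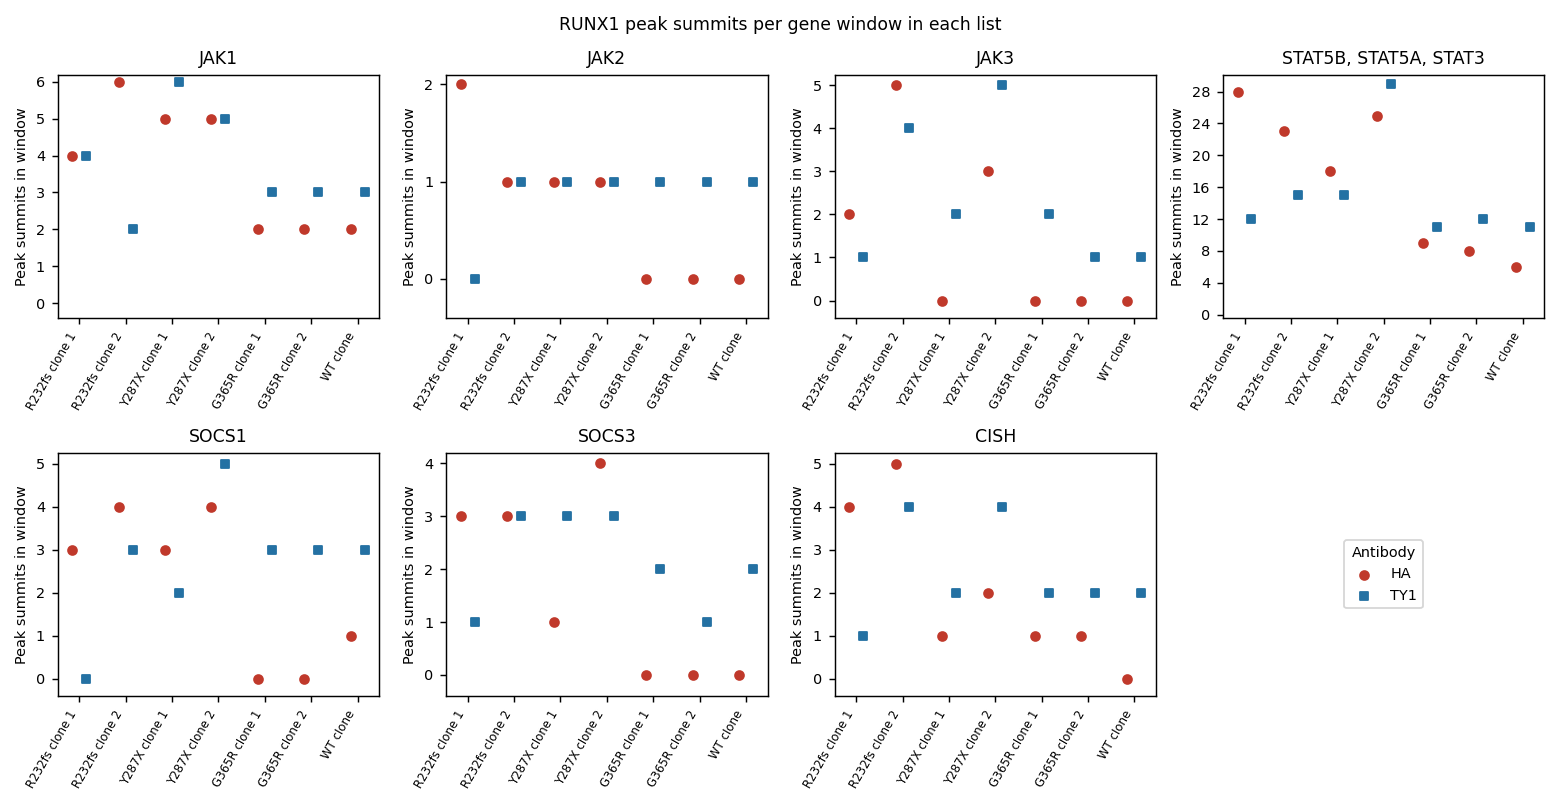
Peak summits (vertical axis, number) in each of the 7 windows, by clone (horizontal axis), for HA (red circles) and TY1 (blue squares), 1 point per list. The STAT window held 6 to 29 summits a list, whereas JAK2 had at most 2 in any list.

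Among the kinases, JAK1 carried the strongest binding. The JAK1 window held 16 regions and 2 to 6 summits a list. Its region chr1:65342930-65343282 was in 10 lists and had the highest folds of any member in the G365R and WT lists, where fold is the authors' enrichment of the summit over local background. In G365R the fold was 12.23 and 12.80 for HA and 20.58 and 23.12 for TY1, and in WT it was 21.29 for HA and 24.69 for TY1. These values lay at percentiles 94.2 to 98.6 of their own lists. In the first R232fs clone the fold was 4.88 (HA) and 12.28 (TY1), and in the first Y287X clone 6.77 (HA) and 9.70 (TY1). The second R232fs and the second Y287X clones had no peak there under either tag. The presence of this region therefore separated the clones of 1 genotype from each other and not the mutant from the wild-type protein, while the HA fold was below the TY1 fold in all 5 clones that held it. The 95th percentile of all folds in a list was also lower under HA in each of these clones (10.79 against 20.38 in the first R232fs clone). By percentile within its list HA stayed lower, from 74.8 against 88.3 (first R232fs clone) to 98.3 against 98.6 (WT). The share of all regions with this pattern was not counted. Solved summit pileups were 23 and 30 fragments for HA and 46 and 42 for TY1 in the 2 first clones, 52 and 53 against 94.7 and 127 in G365R, and 118 against 141.7 in WT. The values 94.7 and 141.7 come from scaled lists and are not counts of fragments. Depth is unknown, so pileups of different lists are not on a common scale. A further JAK1 region, chr1:65389249-65389577, was likewise absent from both second clones of R232fs and Y287X. It was in the 2 TY1 lists of G365R (fold 6.30 and 7.59) and the WT TY1 list (6.93), in both lists of the first R232fs clone (HA 4.68, TY1 7.58) and in the first Y287X TY1 list (3.61).

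The opposite pattern was seen at the other end of the JAK1 window. Region chr1:65289629-65289967 was in all 8 R232fs and Y287X lists and in none of the 6 G365R and WT lists. Its fold was 5.08 and 4.58 (HA) and 4.96 and 5.51 (TY1) in R232fs, and 5.46 and 5.32 (HA) and 3.84 and 4.45 (TY1) in Y287X. It was equally present under both tags, with pileups of 16 to 24 fragments. Over the genome 0.176% of regions had this pattern, and no member did with lists of equal length or with peaks of −log10 q of at least 5. Region chr1:65329864-65330158 was in both Y287X TY1 lists (fold 3.84 and 2.21) and neither Y287X HA list, and was the only member of that kind (1.04% of members, 1.20% of all regions).

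JAK1 also had the single kinase region present in all 14 lists, chr1:65431892-65432261. Its fold was low for its signal. It ranged from 1.64 to 6.41, at percentiles 0.7 to 24.8 of the 11291 regions common to all lists, while its pileup of 77 to 594 fragments lay at percentiles 48.8 to 85.0. The local background solved for it had a median of 88.9 fragments, more than at 92.5% of those common regions, whose median was 14.1. Ranks of fold and of pileup therefore place this region very differently, and both are given for it below.

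JAK2 was almost bare. Of its 3 regions, chr9:4985180-4985490 was in 7 lists, all from R232fs or Y287X. The fold was 1.59 and 2.02 (R232fs HA), 2.53 (the second R232fs TY1 list), 1.59 and 1.56 (Y287X HA) and 1.83 and 1.82 (Y287X TY1). Pileups there were 138 to 183 fragments on a background of 71.6 to 99.3, so these are weak enrichments on a high background. The other regions were chr9:4987960-4988210, in the first R232fs HA list (3.00), the second G365R TY1 list (4.21) and the WT TY1 list (4.69), and chr9:4984543-4984743, in the first G365R TY1 list alone (1.72). The last was the only one of the 96 regions with a summit in G365R or WT and in no R232fs or Y287X list, but peaks of 3 such lists (R232fs HA and TY1 and Y287X TY1, all of the second clones) covered it with their summits elsewhere.

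JAK3, which pairs with the common gamma chain, had 8 regions, none in more than 8 lists. The most widely held, chr19:17957040-17957291, had a fold of 2.95 and 4.24 (HA) and 3.35 and 5.80 (TY1) in R232fs. In Y287X it was in the second HA list (2.50) and both TY1 lists (3.76 and 4.37), in WT only under TY1 (2.56), and in G365R in no list. In JAK3 as a whole, the first Y287X HA list, both G365R HA lists and the WT HA list had no summit, whereas every TY1 list had 1 to 5. The G365R and WT HA lists were shorter than the TY1 lists of their clones. With lists of equal length the second G365R TY1 list and the WT TY1 list also had 0 summits in JAK3. Regions chr19:17958650-17958920 and chr19:17966419-17966650 were each in 6 lists, with folds of 1.44 to 4.58 and 2.18 to 3.11.

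The STAT window held more than any other, 222 of the 402 summits and 53 of the 96 regions, with 6 to 29 summits a list. Of the 7 regions found in all 14 lists, 6 were here and the seventh was the JAK1 region above. In order along the chromosome, and named STAT region 1 to 6 from here on, they were chr17:40464361-40464943, chr17:40467400-40467882, chr17:40471888-40472195, chr17:40489564-40489852, chr17:40494637-40494896 and chr17:40540413-40540842. Without an annotation of this build they were not assigned to STAT5B, STAT5A or STAT3. Of the 96 members 7 (7.29%) were in all 14 lists, against 5.92% of all regions. Those in at least 10 lists numbered 17 (17.7%, against 16%) and those in a single list 41 (42.7%, against 42.3%). By the number of lists that held them, the members were thus much like regions of the genome. Which lists held them differed. Of the members 70.8% were in R232fs or Y287X lists and in no G365R or WT list, against 52.4% of all regions.

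STAT regions 3 and 4 reached the highest single folds of the window. By median fold over the lists STAT region 3 (6.89) was followed by STAT region 5 (5.64) and STAT region 4 (5.26). At STAT region 3 the second R232fs clone had a fold of 12.43 (HA) and 25.99 (TY1), against 6.38 and 7.72 in the first. Y287X gave 7.41 and 10.72 (HA) and 7.52 and 17.42 (TY1), G365R 4.53 and 4.39 (HA) and 5.65 and 4.76 (TY1), and WT 4.05 and 3.87. At STAT region 4 the second Y287X clone had 22.04 (HA) and 29.03 (TY1), against 8.40 and 8.51 in the first. R232fs gave 6.65 and 5.57 (HA) and 4.67 and 4.96 (TY1), G365R 4.92 and 3.64 (HA) and 7.27 and 4.44 (TY1), and WT 3.87 and 4.60. The second clone was higher than the first under both tags at STAT region 3 in R232fs and Y287X and at STAT region 4 in Y287X. The fold of STAT region 5 ranged from 3.31 to 9.39 and that of STAT region 2 from 2.11 to 5.96.

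STAT region 6 resembled the JAK1 region found in all lists. It reached the highest pileup of any member, 961 fragments (range 133 to 961, percentiles 77.3 to 95.2 of the common regions), on a background of 50.9 to 123.9, and so a fold of only 1.96 to 8.63 (percentiles 6.8 to 44.1). STAT region 1 had pileups of 103 to 348 and folds of 1.83 to 4.51. A region just short of full sharing, chr17:40474880-40475145, was missing only from the WT HA list. Its fold was 4.43 to 11.23 in the R232fs and Y287X lists and 2.18 to 3.60 in the G365R lists and the WT TY1 list, which did not overlap. These 2 sets of lists also differ in kind, and the share of all regions separated in this way was not counted.

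**Figure D2:**
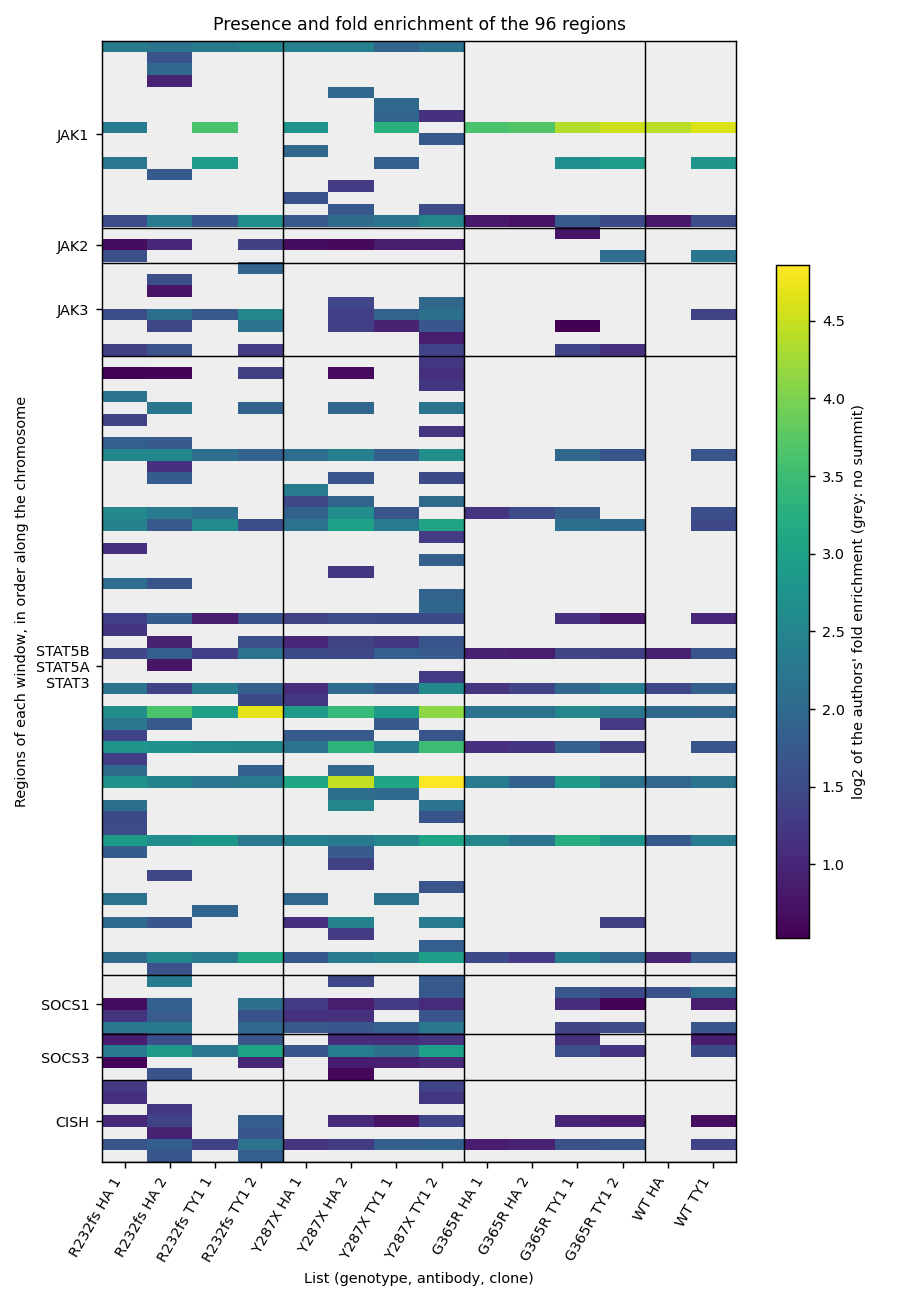
The 96 regions (vertical axis, by window and in order along the chromosome) in the 14 lists (horizontal axis); colour is log2 of the authors' fold and grey means no summit. The G365R HA and WT HA columns are the emptiest, with 12, 11 and 9 summits, and the bright JAK1 row is the region with folds up to 24.69.

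Among the inhibitor genes, SOCS1 and SOCS3 had no summit in the G365R HA lists, while CISH had 1 in each. These HA lists were shorter than the G365R TY1 lists. With lists of equal length the second G365R TY1 list also had 0 summits in SOCS1 and in SOCS3. SOCS1 had 5 regions and no summit in both G365R HA lists and the first R232fs TY1 list. Its chr16:11357501-11358012 had a fold of 4.80 and 4.83 (R232fs HA), 3.93 (second R232fs TY1), 3.34 and 3.25 (Y287X HA), 3.56 and 4.79 (Y287X TY1), 2.69 and 2.91 (G365R TY1) and 3.20 (WT TY1). Region chr16:11349767-11350316 was in the same 10 lists with folds of 1.48 to 4.34. Region chr16:11352677-11352919 was in all 4 HA lists of R232fs and Y287X (2.26, 3.40, 2.18 and 2.2) and the second TY1 list of each (3.06 and 3.23), and in no G365R or WT list. Conversely chr16:11345980-11346212 was in the G365R TY1 lists (3.26 and 2.79), both WT lists (HA 3.07, TY1 4.18) and otherwise in the second Y287X TY1 list (3.28).

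SOCS3 had 4 regions and none in the G365R HA or WT HA lists. Its leading region, chr17:76352403-76352714, was in the other 11 lists. The fold was 5.00 and 7.25 (HA) and 4.69 and 8.47 (TY1) in R232fs, 3.24 and 5.07 (HA) and 4.38 and 7.87 (TY1) in Y287X, 3.00 and 2.27 in the G365R TY1 lists and 2.82 in the WT TY1 list. The 8 R232fs and Y287X values were all above the 3 others. These 2 sets of lists also differ in kind, and the share of all regions divided in this way was not counted. In both of those genotypes the second clone had the higher value under each tag.

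CISH, whose RefSeq promoter carries the 4 STAT palindromes printed above, had 7 regions in 27 kb. Region chr3:50654304-50654703 was in every list but WT HA. Its fold was 3.13 and 3.52 (HA) and 2.59 and 4.44 (TY1) in R232fs, 2.30 and 2.43 (HA) and 3.63 and 3.67 (TY1) in Y287X, 1.84 and 1.93 (HA) and 3.02 and 3.20 (TY1) in G365R, and 2.63 in the WT TY1 list. HA was below TY1 in 5 of the 6 clones with both values, the exception being the first R232fs clone. The same held by percentile within the list, and the share of all regions with this pattern was not counted. Region chr3:50649247-50649625 was in 9 lists with folds of 1.61 to 3.59.

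One region recurred at a like place in all 7 windows. Measured from the window edge on the 5′ side of the gene (STAT3 in the shared window), it lay 10.9 kb in at JAK1, 10.4 kb at STAT3, 11 kb at SOCS1, 10.6 kb at CISH, 10.3 kb at JAK2, 10.2 kb at JAK3 and 10.8 kb at SOCS3. This band, 9.5 to 11.5 kb, was chosen after these values were seen, and where it held 2 regions (JAK2 and SOCS3) the more widely held one is given. The windows of JAK3, SOCS1, SOCS3 and CISH are 20.8 to 21.7 kb wider than the RefSeq genes and that of JAK2 18.4 kb wider. The JAK1 window (155 kb) is narrower than the RefSeq gene (234.52 kb, a difference of −79.5 kb), so it does not have equal margins around that gene model. No annotation of this build was used to place a gene start in the band. The number of lists holding the region ran from 14 (JAK1 and STAT3) over 10 (SOCS1), 9 (CISH), 7 (JAK2) and 6 (JAK3) to 5 (SOCS3). Its solved background had a median of 78.5 to 97.5 fragments in each of the 7 windows, against 14.1 over the regions common to all lists. Their median fold was 1.82 to 4.51. Such a background was not particular to the band, since medians of 72.3 to 81.8 were also solved outside it, at CISH chr3:50654304-50654703 (79.3), in the STAT window at chr17:40428514-40428787 (81.8) and STAT region 1 (74.3), and at SOCS3 chr17:76349022-76349276 (72.3).

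**Figure D3:**
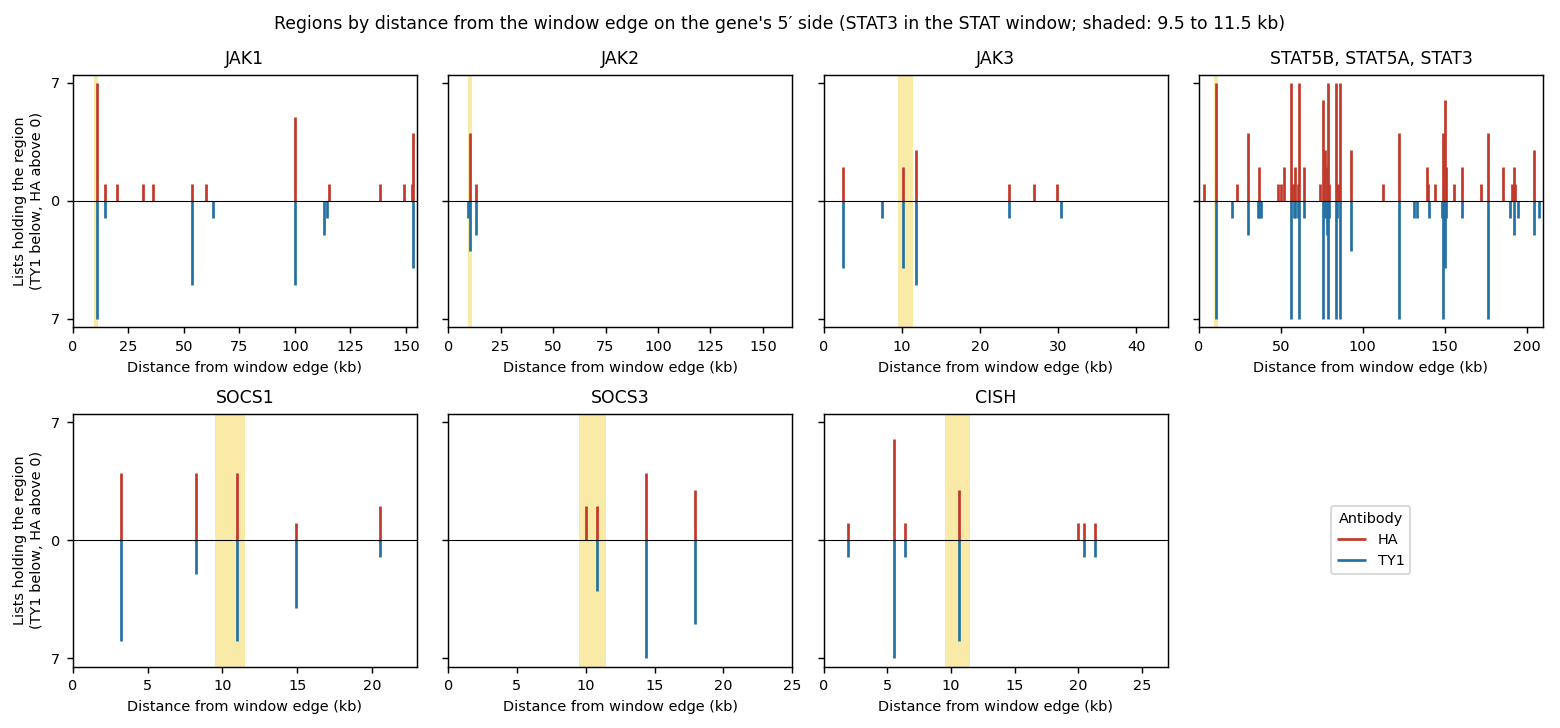
Distance of each region from the window edge on the gene's 5′ side (horizontal axis, kb) and the number of lists holding it (vertical axis; HA red above 0, TY1 blue below, at most 7 each). The shaded band from 9.5 to 11.5 kb holds a region in every window.

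Mutant and wild-type protein of the same clone shared 38.3% and 54.9% of the member regions in R232fs, 53.8% and 54.8% in Y287X, 45.8% and 41.7% in G365R and 39.1% in WT. For all regions the shares were 40.4% and 50.6%, 55.6% and 52.4%, 43.3% and 40.2%, and 47.2%. Members thus differed little from the genome in the mutant clones. In WT the 14 unshared regions were all in the TY1 list and 0 in the HA list alone (14.6% and 0% of members, against 14.8% and 3.33% of all regions). Both tags mark wild-type protein there, so this asymmetry was measured without a mutation, in 1 clone whose TY1 list was the longer (59452 against 37472 peaks). With lists of equal length 5 members were in its TY1 list alone and 0 in its HA list alone. These were 12.2% and 0% of members, against 11.0% and 10.9% of all regions.

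Members held by a single tag in both clones numbered 0 to 10, depending on genotype and tag. In R232fs 4 members were held by the HA lists of both clones and by no TY1 list (4.17%, against 3.98% of all regions), all in the STAT window: chr17:40472948-40473343 (R232fs HA fold 4.79 and 3.39), chr17:40411538-40411763 (4.20 and 3.14), chr17:40520860-40521253 (4.04 and 3.24) and chr17:40365428-40365775 (3.56 and 3.40). The first of these was also in the first Y287X TY1 list (3.40) and the second G365R TY1 list (2.36). The third, chr17:40520860-40521253, was in 6 lists. Beyond R232fs it was in both Y287X HA lists, the second Y287X TY1 list (4.99) and the second G365R TY1 list (2.54). The second and the fourth were in no other list. The reverse pattern had 0 members (0.27% of all). In Y287X 0 members were in the HA lists alone (0.679% of all). In G365R 10 members were held by the TY1 lists of both clones and by no HA list (10.4%, against 7.85%), among them the JAK1 region chr1:65389249-65389577, the SOCS3 region chr17:76352403-76352714 and chr17:40401723-40402314 of the STAT window (TY1 4.31 and 4.10). The reverse had 0 members (0.24% of all). With lists of equal length the 4 and the 10 each became 2 of 41 (4.88%), against 1.63% of all regions for R232fs and 3.92% for G365R.

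Between kinds of mutation the members leaned to 1 side. Of the 96 regions, 68 (70.8%) were in R232fs or Y287X lists and in no G365R or WT list, against 52.4% of all regions, and 1 (1.04%) had its summits in G365R or WT lists alone, against 13.2%. That region, in JAK2, was covered by peaks of R232fs and Y287X lists, and with whole peaks merged the count was 0 of 84 (11.1% of all). Limiting every list to the same number of peaks gave 20 of 41 (48.8%, against 25.1%) and 2 of 41 (4.88%, against 25.1%). There were 3 members in all 4 HA lists of R232fs and Y287X and in no G365R or WT list (3.12%, against 0.982%): the JAK1 region chr1:65289629-65289967, the SOCS1 region chr16:11352677-11352919 and the JAK2 region chr9:4985180-4985490. With lists of equal length this count was 0 of 41 (1.22% of all), with peaks of −log10 q of at least 5 it was 1 of 65 (0.798%) and with whole peaks merged 2 of 84 (1.21%). The converse, all 6 G365R and WT lists and no other, had 0 members (0.252% of all). All 3 were also in TY1 lists of those clones, so they do not separate the mutant from the wild-type protein. Kind of list and genotype cannot be told apart here.

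At the 7 regions common to all lists the strength of binding was compared by rank. The fold was ranked within each list over the 11291 common regions and turned into normal scores, so that a change of 1 is 1 SD of a list, and limma was fitted over all of them with Benjamini-Hochberg adjustment and a threshold of 0.05. HA and TY1 lists of 1 clone resembled each other, so the fit in which clone was a term is also given where it altered a call.

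**Figure D4:**
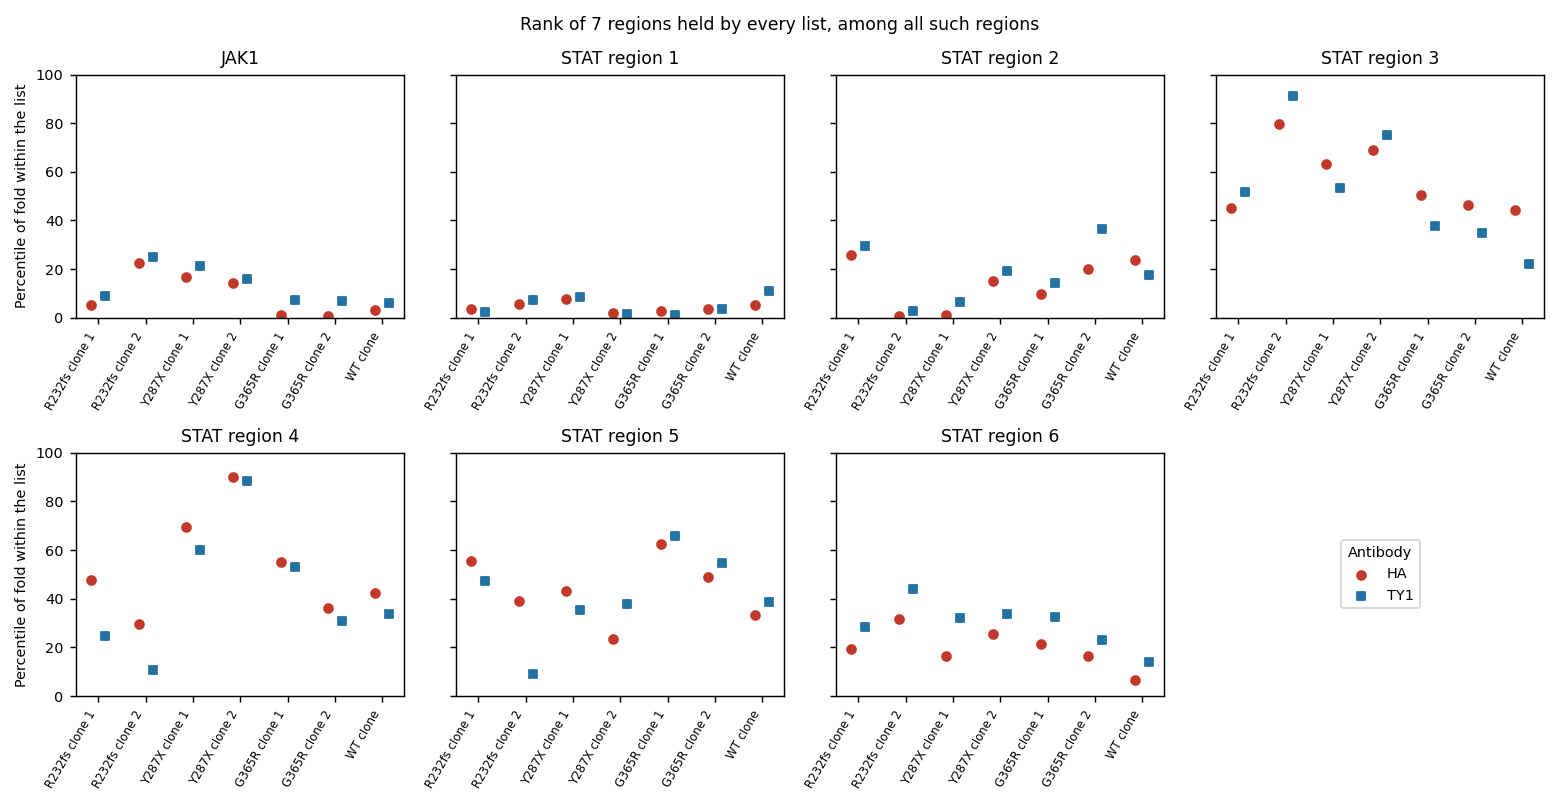
Percentile of the fold within each list (vertical axis, among the 11291 common regions) for the 7 regions found in every list, by clone (horizontal axis), HA as red circles and TY1 as blue squares. At STAT region 4 the second Y287X clone reached 90.2 and 88.6, and at the JAK1 region both G365R HA lists were at 1.1 and 0.7.

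Ranked by fold, no member differed between mutant and wild-type protein without the clone term. The limma count was 0 of 7 in R232fs, Y287X and G365R, and over all regions also 0 (0%). Regions with an unadjusted p under 0.05 numbered 1368, 463 and 590 of 11291 in the 3 genotypes, and 0, 0 and 1 among the 7. With clone as a term 1 member was called in R232fs (21.7% of all regions called), 0 in Y287X (0.815%; 1 member and 2460 of all regions with an unadjusted p under 0.05) and 1 in G365R (4.08%).

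The R232fs call was STAT region 4. The mutant protein stood at percentiles 47.6 and 29.8 and the wild-type protein of the same clones at 24.8 and 10.9. HA exceeded TY1 by 0.66 ± 0.15 (SE, n = 2 clones; adjusted p = 0.0186 by limma with Benjamini-Hochberg, clone as a term; 0.555 without it). The difference was positive in all 7 clones, WT included (0.62 and 0.70 in R232fs, 0.25 and 0.09 in Y287X, 0.06 and 0.15 in G365R, 0.23 in WT), and 4.47% of common regions were higher under HA in all 7. The call was lost when either R232fs clone was left out (limma adjusted p = 0.0727 without the first, 0.114 without the second), and when −log10 p or pileup was ranked (adjusted p = 0.101 and 0.0671), or when regions in at least 10 lists were fitted (0.0625).

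The G365R call was the JAK1 region. The mutant protein stood at percentiles 1.1 and 0.7 and the wild-type protein at 7.3 and 6.8, a difference of −0.89 ± 0.18 (SE, n = 2 clones; limma adjusted p = 0.0396 with clone as a term, 0.943 without it). By fold, HA was below TY1 in all 7 clones (−0.85 and −0.94 in G365R, −0.28 and −0.07 in R232fs, −0.17 and −0.07 in Y287X, −0.31 in WT). STAT region 6 was also lower by fold under HA in all 7 clones, by 0.24 to 0.51, and these 2 of 7 members compare with 4.38% of common regions. By pileup the JAK1 difference in G365R was −0.19 ± 0.08 (adjusted p = 0.0927 by limma, clone as a term). With the clone term it was −1.44 when −log10 p was ranked (limma adjusted p = 0.000191) and −1.47 when regions in at least 10 lists were fitted (adjusted p = 0.00718), both called. These fits called 22% and 20.6% of all regions. Leaving out any clone except the first R232fs clone also ended the call by fold (limma adjusted p from 0.0528 to 0.255). Ranks of pileup called STAT region 6 in G365R even without the clone term, at −0.53 ± 0.11 (limma adjusted p = 0.0188, 6.61% of all regions called). With that term its limma adjusted p was 0.000154 by pileup and 0.00615 by −log10 p, against 0.329 by fold. The fits with that term called 27.3% (pileup), 22% (−log10 p) and 4.08% (fold) of all regions. STAT region 3 was higher under HA in G365R and called only with the clone term, by pileup (0.40, limma adjusted p = 0.00746) and −log10 p (0.75, 0.00597). The JAK1 region chr1:65342930-65343282 was not called in G365R when regions in at least 10 lists were fitted. Its difference was −0.36 (limma adjusted p = 0.551, and 0.106 with clone as a term).

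**Figure D5:**
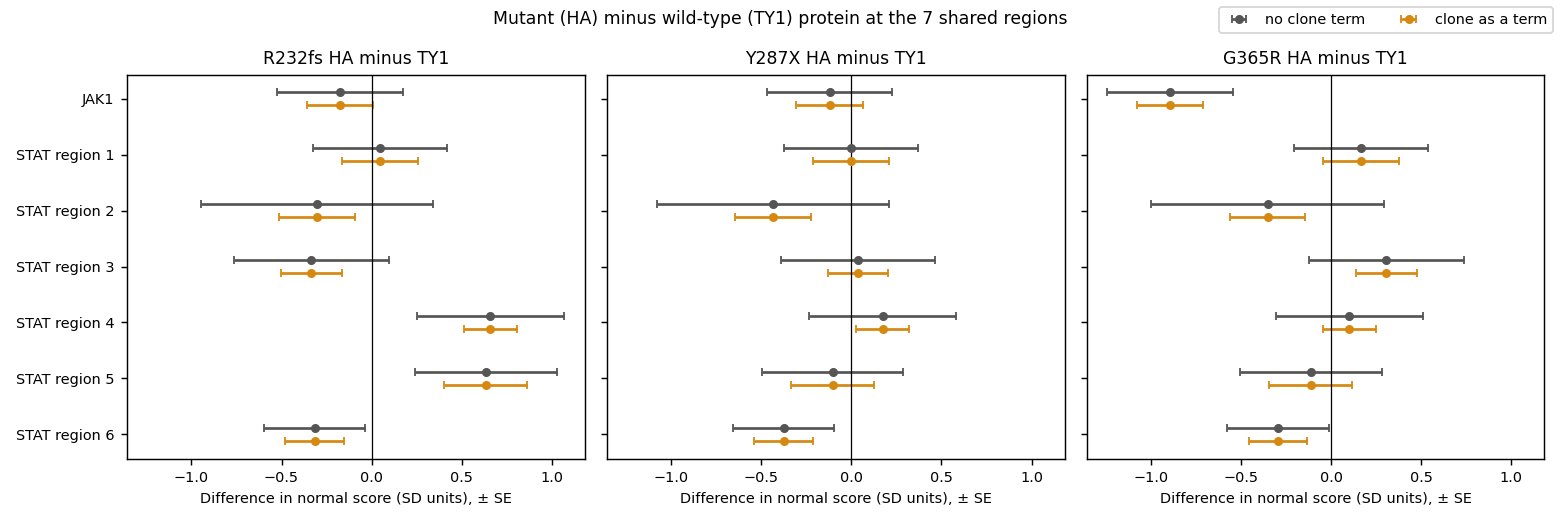
HA minus TY1 (horizontal axis, normal score in SD units, mean of 2 clones ± SE from limma) at the 7 common regions (vertical axis) for the 3 mutant genotypes, without a clone term (grey) and with it (orange). The estimates are the same in both fits and the bars shorten with the clone term, as at the JAK1 region in G365R, where the SE falls from 0.35 to 0.18.

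Whether the tag difference depended on the kind of mutation was tested as the mean of R232fs and Y287X less G365R. No member passed (0 of 7, and 0% of all regions, with 0 members and 1177 of all regions at an unadjusted p under 0.05). With clone as a term 17.1% of all regions passed and again 0 members, the nearest being the JAK1 region at 0.75 ± 0.23 (limma adjusted p = 0.0549). With the clone term the JAK1 difference passed when −log10 p was ranked (1.38, limma adjusted p = 0.00108) and when regions in at least 10 lists were fitted (1.27, adjusted p = 0.0102), but not by pileup (0.23, adjusted p = 0.0938). Of all regions 28.4% (−log10 p), 18.9% (at least 10 lists) and 33.8% (pileup) passed in these fits. Whether the tag contrast differed between genotypes there thus depended on the measure ranked and on the regions fitted.

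Mutant protein of R232fs and Y287X was compared with that of G365R directly. Of the 7 members 1 was higher in the truncating genotypes, the JAK1 region (9.53% of all regions called). HA percentiles were 5.1 and 22.6 in R232fs and 16.7 and 14.4 in Y287X, against 1.1 and 0.7 in G365R and 3.1 in WT. The change was 1.26 ± 0.30 (SE, 4 clones against 2; limma adjusted p = 0.0316), and 0.0292 with a random clone effect, with which 8.7% of all regions were called. By pileup the HA lists stood at percentiles 84.1 and 85.0, 83.7 and 84.1, and 63.3 and 48.8, a change of 0.85 ± 0.11 (limma adjusted p = 0.000188). With ranks of −log10 p the change was 2.52 ± 0.31 (limma adjusted p = 0.000169). Calls were common in these fits, with 40.6% (pileup) and 39.6% (−log10 p) of all regions called. The call by fold was lost without the first or second G365R clone (adjusted p = 0.238 and 0.265) or the first or second Y287X clone (0.0794 and 0.103), all by limma.

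For the wild-type protein of the same clones no member passed (0 of 7, 4.57% of all regions called, 2 members and 2829 of all regions at an unadjusted p under 0.05). The random clone effect gave 0 members as well (3.44% of all regions). At the JAK1 region the TY1 percentiles were 8.8 and 24.8 in R232fs, 21.4 and 16.1 in Y287X, 7.3 and 6.8 in G365R and 6.0 in WT, a change of 0.52 ± 0.30 (limma adjusted p = 0.304). By pileup the TY1 change passed as well, at 0.62 ± 0.11 (limma adjusted p = 0.00547), as it did with ranks of −log10 p, at 1.14 ± 0.31 (adjusted p = 0.0207). Of all regions 18.1% were called by pileup and 24.3% by −log10 p. The JAK1 region was thus higher by pileup rank in the R232fs and Y287X lists under both tags, along the line that also divides the 2 kinds of list.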

How the data were processed

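The build was hg19 and the tools named were MACS2 2.2.7.1, Bowtie2 2.2.9 and CASAVA 1.8, per the submitters' processing notes. The caller's settings and the libraries it took as control were not given in these sources. The deposited narrowPeak lists, 1 per library, give each peak the authors' fold enrichment (a linear ratio), −log10 p and −log10 q, a score and the summit's distance from the peak start. The score was not used.

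Peaks on chromosomes 1 to 22 and X were kept. Depth is not part of a list. Pileup and background were solved from fold and −log10 p by the Poisson formula with a pseudocount of 1, which gave whole numbers (within 0.05) for at least 99.99% of peaks in 12 lists and for 6.84% and 8.08% in the WT TY1 and first G365R TY1 lists, so these 2 were scaled. Normal scores were fitted with limma 3.58.1 in R 4.3.3 (trend, 8 groups, 6 residual degrees of freedom, 3 with clone as a term, the lone WT lists assumed to vary like the others). Tables and plots used Python 3.11.15, numpy 2.4.6, pandas 2.3.3, scipy 1.17.1 and matplotlib 3.10.9.

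The pairing of HA and TY1 lists comes from the clone that each deposited list is named for. Deviations from group means correlated with r = 0.503 in G365R, 0.702 in Y287X and 0.792 in R232fs, so the numbers pair the samples. Labels do not say whether the clones were cultured separately for each library, and p-values measure the spread between these libraries. Scores were also simulated for the R232fs contrast over 11291 regions, with shifts of 0.5, 1, 1.5 and 2. Without the clone term 0%, 6%, 36% and 58% of these were called, and with it 2%, 48%, 86% and 92%. Shifts of 0.5 were thus almost never called by either fit.

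The genes, regions and tests were chosen with earlier results of these data known. Regions named were, per window, the one in most lists and up to 3 more of those in all lists; every region past the threshold with or without the clone term; and up to 3 by median fold in each pattern of presence by tag or kind of mutation. Others were named after their values were seen. Alternatives were ranks of −log10 p or of pileup, regions in at least 10 lists, windows of 250 bp, peaks of −log10 q of at least 5, lists of equal length, whole peaks merged, the clone term and leaving out each mutant clone.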

Additional observations from a re-analysis of the deposited data

Results flagged for a closer look

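In 4 windows the number of summits under HA minus that under TY1 was positive in both clones of 1 genotype and negative in both clones of another. None of these differences was tested. The HA list was the longer one in both R232fs clones and the TY1 list in both G365R clones, whereas in Y287X the HA list was longer in the first clone (51892 against 49749 peaks) and the TY1 list in the second (81561 against 67594). In the STAT window HA exceeded TY1 by 16 and 8 summits in R232fs and fell short of it in G365R (−2 and −4), so the means differed by 15.0. In SOCS1 the differences were 3 and 1 in R232fs and −3 and −3 in G365R, and the means differed by 5.0. In JAK3 they were −2 and −1 in G365R, −2 and −2 in Y287X and 1 and 1 in R232fs, so R232fs differed by 3.0 from Y287X and by 2.5 from G365R. In CISH they were −1 and −1 in G365R, −1 and −2 in Y287X and 3 and 1 in R232fs, which gave 3.5 and 3.0.

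When every list was limited to its 30563 strongest peaks, the opposition was unchanged in JAK3 between R232fs and Y287X and ended in the STAT window, in CISH and, for 1 clone, in SOCS1. In JAK3 R232fs then had 2 and 3 summits for HA and 1 and 2 for TY1, Y287X 0 and 1 for HA and 2 and 3 for TY1, and G365R 0 and 0 for HA and 1 and 0 for TY1. In the STAT window R232fs had 12 and 9 summits for HA and 11 and 9 for TY1, and G365R 9 and 8 for HA and 10 and 7 for TY1. In CISH R232fs had 3 and 2 for HA and 1 and 4 for TY1, Y287X 1 and 2 for HA and 2 and 2 for TY1, and G365R 1 in each of its 4 lists. In SOCS1 R232fs had 1 and 3 for HA and 0 and 1 for TY1, and G365R 0 and 0 for HA and 2 and 0 for TY1.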

How the results depend on the processing

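Of 225 results recomputed under another setting, 142 were counts, which have no direction, and 83 were differences at the 2 regions called by fold. Of the counts 103 stayed within 1.5 times and 39 moved. The 103 include counts of 0 members called that stayed 0, as in every Y287X setting, and such counts say little about stability. Of the single-region values 66 kept their side of the threshold, 13 passed it newly and 4 no longer passed, and none of the 83 changed sign. Over all 7 common regions and 6 comparisons, 16 of 42 differences had the opposite sign under at least 1 setting that kept every clone. An opposite sign was called in 1 of them, STAT region 6 for the tag difference by kind of mutation (−0.05 without a clone term, 0.39 by pileup with it, limma adjusted p = 0.00627). In G365R the HA minus TY1 difference at STAT region 1 was 0.17, −0.18 with ranks of −log10 p and −0.64 with regions in at least 10 lists, and at STAT region 4 it was 0.10 and, with regions in at least 10 lists, −0.30. With lists of equal length there were 41 member regions, 14 of them in a single list, with 2 R232fs regions under HA alone and 2 G365R regions under TY1 alone, and 29 (JAK1), 5 (JAK2), 15 (JAK3), 134 (STAT), 13 (SOCS1) and 17 (SOCS3) summits, since fewer peaks enter. Peaks of −log10 q of at least 5 left 19 single-list regions, 7 JAK2 summits and 0 calls between HA lists of truncating and G365R clones, where the JAK1 region was not among the 5 tested. Members called between those HA lists numbered 4 (ranks of −log10 p, 39.6% of all regions called), 2 (pileup, 40.6%), 3 of 11 (regions in at least 10 lists, 17.5%) and 0 to 1 leaving out a clone (0.00886% to 23.6%). Between TY1 lists they numbered 2 (−log10 p, 24.3%), 2 (pileup, 18.1%) and 0 to 2 leaving out a clone, where the 2 came without the first R232fs clone (23.4%). In G365R they numbered 1 with pileup (6.61%) and, with clone as a term, 1 (4.08%), then 3, 2 and 4 of 10 when it was joined to ranks of −log10 p (22%), pileup (27.3%) and at least 10 lists (20.6%), and 0 to 1 leaving out a clone. In R232fs they numbered 1 with clone as a term (21.7%), 2 of 16 when joined to at least 10 lists (9.06%), and 0 to 1 leaving out a clone. For the tag difference by kind of mutation, clone as a term gave 2, 2 and 2 of 10 with ranks of −log10 p (28.4%), pileup (33.8%) and at least 10 lists (18.9%). Combinations with the clone term were added after the data were seen. Beyond naming fewer peaks or regions the cause was not tested. The clone term changed no other call. Depth is unknown, so a region missing from a short list may lie below the threshold there and is not shown to be unbound. No test over the 96 members was made.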

Other observations

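Summits under HA and TY1 fell close together in the 7 regions found in all lists. The median HA summit minus the median TY1 summit ranged from −35 to 25 bp, and over the 14 lists the summits of a region spread over 59 bp (STAT region 5) to 382 bp (STAT region 1). At STAT regions 3 and 4, which had the highest folds of their window, the spread was 107 and 88 bp. The widest separation by tag among regions in at least 10 lists was at chr17:40400557-40401365, where the median HA summit lay 304.5 bp from the median TY1 summit in the direction of higher coordinates and the summits of 10 lists spread over 608 bp.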
